A study of Mus musculus with 4 samples.

Results

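Genes that mark primitive and definitive endoderm were followed through the differentiation of female mouse embryonic stem cells (mESCs) and after knockdown of Smarca4, an ATPase subunit of the BAF complex, which remodels nucleosomes. The 10 genes were chosen by name (Gata4, Gata6, Sox17, Sox7, Foxa2, Dab2, Pdgfra, Afp, Ttr and Apoa1), and all 10 were among the 25965 genes of the deposited RNA-seq table. The measurements come from 4 libraries of FVB/CAST F1 mESCs, each labelled replicate 3. Other replicate numbers were not analysed here. The day 0 library is from undifferentiated cells, before any hairpin was delivered. The others were taken at day 6 of undirected differentiation and carried a retroviral hairpin delivered on day 2 and selected with puromycin from day 3. One carried a non-silencing hairpin (Nons), and the others each carried a hairpin against Smarca4, named Smarca4.4 or Smarca4.6. Values given for day 6 follow the order Nons, Smarca4.4, Smarca4.6. Undifferentiated cells were kept with kinase inhibitors and LIF and the differentiating cells in serum without them. Day 0 and Nons therefore differ in medium, viral transduction and antibiotic selection as well as in time, and these cannot be told apart.

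Primitive endoderm splits off from the pluripotent epiblast in the blastocyst and gives rise to the visceral and parietal endoderm of the yolk sac. Definitive endoderm, the source of gut, liver and pancreas, forms later from epiblast cells that pass through the primitive streak. Both are built by GATA, SOX and FOXA transcription factors. Pdgfra and Dab2 are early markers of the primitive endoderm, while Afp, Ttr and Apoa1 are secreted in quantity by mature visceral endoderm and by liver.

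Each group was 1 library here, so no difference below was set against the spread between replicates, and no p-values were computed. The intervals given are exact 95% intervals of the read counts. They cover counting error only, and they compare libraries, not conditions. The library totals, in units of 1000000 reads, were 18.6 at day 0 and 45.8, 47.1 and 36.5 at day 6. Levels are in CPM, the reads of a gene per 1000000 reads of its library. A count of 3 reads, taken as the floor, was 0.161 CPM at day 0 and between 0.0636 and 0.0822 CPM at day 6. Smarca4 itself was at 57.3% of its Nons CPM in Smarca4.4 and at 75.8% in Smarca4.6, so both knockdowns were partial. The RNA came from whole cultures, in which fewer cells of a type and less RNA per cell cannot be told apart.

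The guide strands of both Smarca4 hairpins are shown, 5′ to 3′ in lower case, because they define the groups compared at day 6. In GENCODE M21 on mm10, the target of Smarca4.4 is chr9:21703327-21703348 on the plus strand, in the last annotated exon (exon 34), after the stop codon, and it was present in 3 of 4 annotated Smarca4 transcripts. The target of Smarca4.6 is chr9:21670504-21670525 on the same strand, in coding exon 22, and it was present in 4 of 4. Neither guide had a full-length match in a transcript of another gene.
Smarca4.4: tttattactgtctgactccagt
Smarca4.6: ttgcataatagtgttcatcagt

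Promoters were read from RefSeq (GRCm38.p6) for 5 of the 10 genes, namely Foxa2, Dab2, Pdgfra, Afp and Apoa1. Gata4, Gata6, Sox17, Sox7 and Ttr had no entry. Windows of 250 bases before to 50 after the start site were searched on both strands. The GATA letters (AGATAA, its form with a first T as TGATAA, with a last G as AGATAG, or with both as TGATAG) were found in Dab2 and Apoa1, 2 of the 5, against 29.8% of 32851 windows of the same length. The FOXA letters (TGTTTAC or its form TGTTTGC) were found in Afp and Apoa1, against 8.48% of all windows. The SOX letters (ACAATG or its form ACAATA) were found in 0 of the 5, against 19.7% of all windows. These motifs do not overlap each other's letters in the runs shown. The 250 bases upstream of Dab2, Apoa1 and Afp are given because they hold the matches, with matched letters in capitals. Dab2 was the most abundant of the genes at day 6, whereas Afp and Apoa1 were close to the floor. The windows of Dab2 and Apoa1 each held a further GATA match downstream of the start site, which is not shown. A match is a description of letters and not a bound site.
Dab2 (chr15:6299539-6299788, plus strand): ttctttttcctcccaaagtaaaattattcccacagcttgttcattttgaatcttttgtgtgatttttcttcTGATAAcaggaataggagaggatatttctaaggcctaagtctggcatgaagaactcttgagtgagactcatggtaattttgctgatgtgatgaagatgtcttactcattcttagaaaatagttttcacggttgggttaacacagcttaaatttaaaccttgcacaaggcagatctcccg
Apoa1 (chr9:46228380-46228629, plus strand): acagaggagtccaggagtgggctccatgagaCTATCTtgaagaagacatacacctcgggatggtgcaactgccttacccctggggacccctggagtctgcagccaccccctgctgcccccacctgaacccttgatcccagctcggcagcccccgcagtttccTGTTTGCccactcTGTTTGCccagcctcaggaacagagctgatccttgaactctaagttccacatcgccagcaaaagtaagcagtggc
Afp (chr5:90490464-90490713, plus strand): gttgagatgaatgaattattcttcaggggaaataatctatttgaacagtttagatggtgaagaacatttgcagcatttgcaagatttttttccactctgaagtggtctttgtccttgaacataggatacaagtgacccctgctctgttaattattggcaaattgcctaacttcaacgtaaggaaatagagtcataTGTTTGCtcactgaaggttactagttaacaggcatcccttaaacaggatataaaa

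At day 6 of the control differentiation the endoderm genes did not move as a block. Dab2 was 12.1-fold higher and Gata4 was 2.44-fold higher in Nons than at day 0, whereas Gata6 and Sox7 were 5.80-fold and 4.92-fold lower. Sox17 and Pdgfra differed by less than their counting intervals. Foxa2, Afp, Ttr and Apoa1 had at most 8 reads in every library. Against Nons, 5 of the 10 genes had an interval above 0 with Smarca4.4, beside 19.8% of all 25965 genes, and 5 with Smarca4.6, beside 22.4%. These shares are lowered by genes with at most 3 reads in both libraries compared, which could not be counted. Of the endoderm genes above 0, Sox7 had a difference past 2-fold with both hairpins, on few reads, and fell just short with Smarca4.6 under other scalings.

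**Figure D1:**
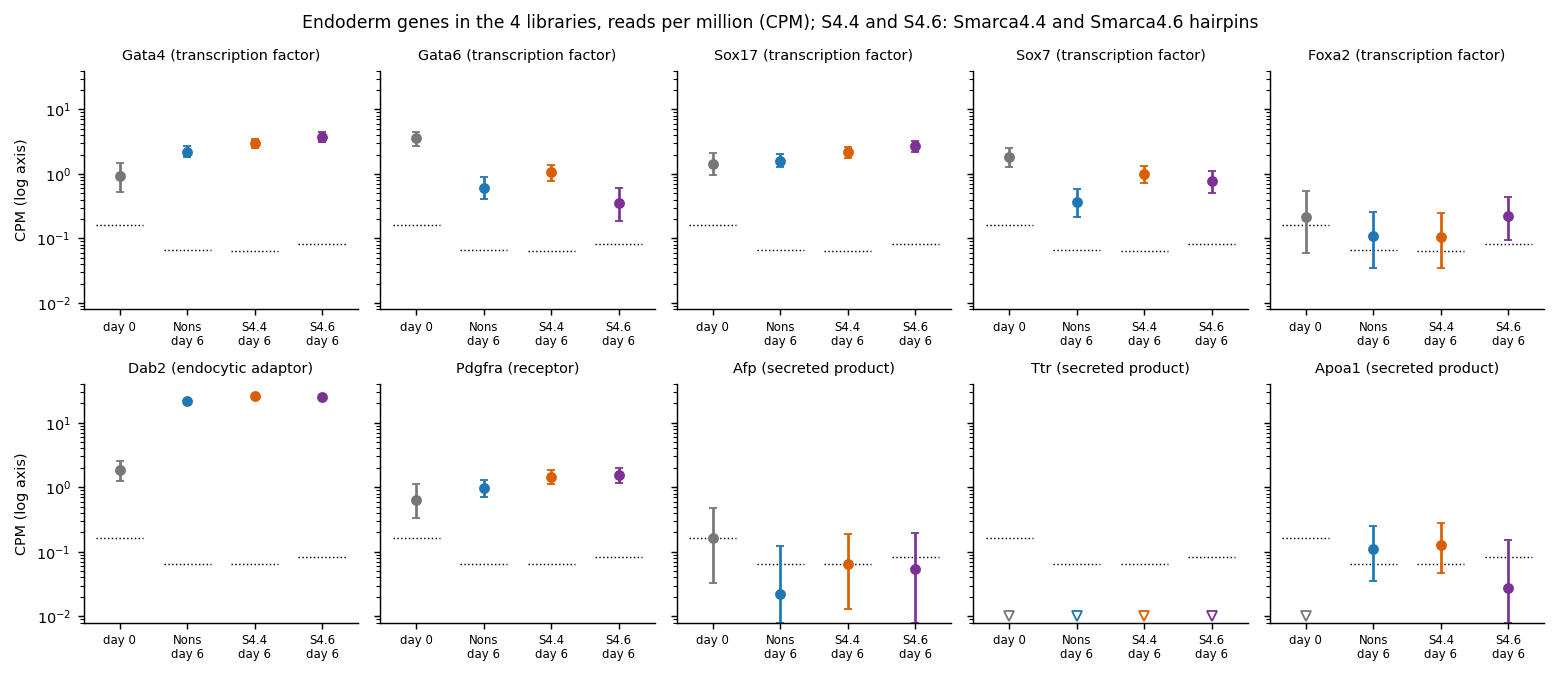
CPM of the 10 endoderm genes in each library on a log axis, with exact 95% counting intervals; dotted lines mark 3 reads and open triangles mark 0 reads. S4.4 and S4.6 are the Smarca4.4 and Smarca4.6 libraries at day 6. Dab2 lay between 22.1 and 26.1 CPM at day 6 against 1.83 CPM at day 0, Gata6 and Sox7 were highest at day 0, and Ttr had 0 reads throughout.

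Gata4 encodes a zinc-finger factor that, with Gata6, can drive mESCs towards primitive endoderm. The gene (chromosome 14, 63198922 to 63271692, minus strand, mm10) had 17 reads at day 0 and 102, 140 and 136 at day 6. These are 0.914, 2.23, 2.97 and 3.73 CPM. The order of libraries was therefore day 0, Nons, Smarca4.4 and Smarca4.6 from lowest to highest, and the day 6 libraries all lay above day 0. Nons exceeded day 0 by 1.29 in log2 CPM (0.54 to 2.12). Smarca4.4 exceeded Nons by 0.41 (0.035 to 0.80) and Smarca4.6 exceeded Nons by 0.74 (0.36 to 1.13). Smarca4.4 and Smarca4.6, neighbours in that order, differed by -0.33 (-0.68 to 0.024), within the counting interval.

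Gata6 encodes the related factor on which specification of the primitive endoderm depends. It lies at chromosome 18, 11052510 to 11085635, on the plus strand. It ran the other way from Gata4 between day 0 and Nons, with 66 reads at day 0 and 28, 50 and 13 reads at day 6, although the day 0 library held the fewest reads in total. Its CPM was 3.55 at day 0 and 0.612, 1.06 and 0.356 in the day 6 libraries. The difference between Nons and day 0 was -2.54 in log2 CPM (-3.23 to -1.88). Against Nons it was 0.79 (0.098 to 1.52) with Smarca4.4 and -0.78 (-1.85 to 0.22) with Smarca4.6. The Smarca4 libraries thus stood on opposite sides of the control, and Smarca4.4 exceeded Smarca4.6 by 1.57 (0.67 to 2.58), the only one of the 10 genes whose interval for that pair did not include 0.

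Sox17 and Sox7 encode SOX group F factors that act in primitive and definitive endoderm and also in endothelium. Sox17 (chromosome 1, 4490928 to 4496413, minus strand) had 27, 74, 103 and 98 reads at day 0 and then in the day 6 libraries, or 1.45, 1.62, 2.18 and 2.69 CPM. Day 0 and Nons were indistinguishable by their counts, with a difference of 0.16 in log2 CPM (-0.50 to 0.85). The difference from Nons was 0.43 (-0.011 to 0.88) with Smarca4.4 and 0.73 (0.28 to 1.19) with Smarca4.6. The Smarca4 libraries differed from each other by -0.30 (-0.71 to 0.12). Of the 75-base words of the Sox17 transcript, 23.0% also occur in the predicted gene Gm37587, so its reads are uncertain to that extent. None of the words of the other 9 genes was shared with another gene.

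Sox7 (chromosome 14, 63943674 to 63950732, plus strand) had 34 reads at day 0 and 17, 47 and 28 at day 6. Its CPM was 1.83 at day 0 and 0.372, 0.997 and 0.767 at day 6, so that each day 6 library was lower than day 0 and Nons was the lowest of all. Nons differed from day 0 by -2.30 in log2 CPM (-3.23 to -1.42). Smarca4.4 exceeded Nons by 1.42 (0.60 to 2.32), a 2.68-fold difference, and Smarca4.6 exceeded Nons by 1.05 (0.13 to 2.01), a 2.07-fold difference. Between the Smarca4 libraries the difference was 0.38 (-0.33 to 1.11). Both comparisons with Nons rest on the same 17 reads.

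Foxa2, a forkhead factor of definitive and visceral endoderm and of the floor plate, had 4, 5, 5 and 8 reads in the same order of libraries, or 0.215, 0.109, 0.106 and 0.219 CPM. All its intervals were wide and included 0, among them a difference of 1.00 (-0.79 to 2.96) for Smarca4.6 against Nons. No difference in Foxa2 was detectable at this depth.

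Dab2 encodes an endocytic adaptor that binds the tails of lipoprotein receptors and is needed for the visceral endoderm to form properly. Dab2 (chromosome 15, 6299788 to 6440712, plus strand) had 34 reads at day 0 and 1010, 1231 and 930 at day 6. This is 1.83 CPM at day 0 against 22.1, 26.1 and 25.5 CPM at day 6. Nons exceeded day 0 by 3.59 in log2 CPM (3.10 to 4.13), and 95.7% of the genes with a mean log2 CPM of at least 0 had a lower difference. The day 6 libraries were close to each other, with differences from Nons of 0.24 (0.12 to 0.36) and 0.21 (0.077 to 0.34) for Smarca4.4 and Smarca4.6. A difference of at least the size of the Smarca4.4 value was not unusual, since only 80.5% of those genes lay below it. For Smarca4.6 that share was 69.2%. An antisense gene, Gm16311, overlaps Dab2 by 6670 bases and had 0 reads in each library.

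Pdgfra encodes a receptor for platelet-derived growth factor that marks the primitive endoderm early and is also widespread in mesoderm. Pdgfra (chromosome 5, 75152291 to 75198204, plus strand) had 12, 44, 69 and 56 reads, or 0.645, 0.962, 1.46 and 1.53 CPM, in the same order. Nons and day 0 differed by 0.58 in log2 CPM (-0.37 to 1.63), within counting error. Smarca4.4 exceeded Nons by 0.61 (0.040 to 1.19) and Smarca4.6 by 0.67 (0.079 to 1.28), and the Smarca4 libraries differed by -0.068 (-0.60 to 0.47).

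The secreted products of mature visceral endoderm were at or near the floor. Afp, which encodes alpha-fetoprotein, had 3, 1, 3 and 2 reads. Ttr, which encodes the thyroid hormone carrier transthyretin, had 0 reads in each library, where 3 reads would be 0.161 CPM at day 0 and at most 0.0822 CPM at day 6. The exact interval for Ttr reached 0.198 CPM at day 0 and at most 0.101 CPM at day 6. Apoa1, the main protein of high-density lipoprotein, had 0, 5, 6 and 1 reads. Apoa1 differed from Nons by 0.22 (-1.76 to 2.27) with Smarca4.4 and by -2.00 (-7.56 to 1.16) with Smarca4.6. Folds are not given for Afp or Ttr. Checked against the members of the set, the markers seen above a few reads were Gata4, Gata6, Sox17, Sox7, Dab2 and Pdgfra, whereas Foxa2 and the mature visceral products were not.

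Scaled by the length of the longest annotated transcript, the order of the genes changed with differentiation. At day 0 Gata6 had the highest level, 0.938 CPM per kilobase, followed by Sox7 at 0.554, Sox17 at 0.448, Dab2 at 0.392 and Gata4 at 0.269. In Nons Dab2 stood at 4.73 CPM per kilobase, followed by Gata4 at 0.656, Sox17 at 0.499 and Gata6 at 0.162. The summed CPM of the 10 genes was 10.6 at day 0 and 28.1, 35.1 and 34.9 at day 6, and Dab2 made up most of it at day 6.

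**Figure D2:**
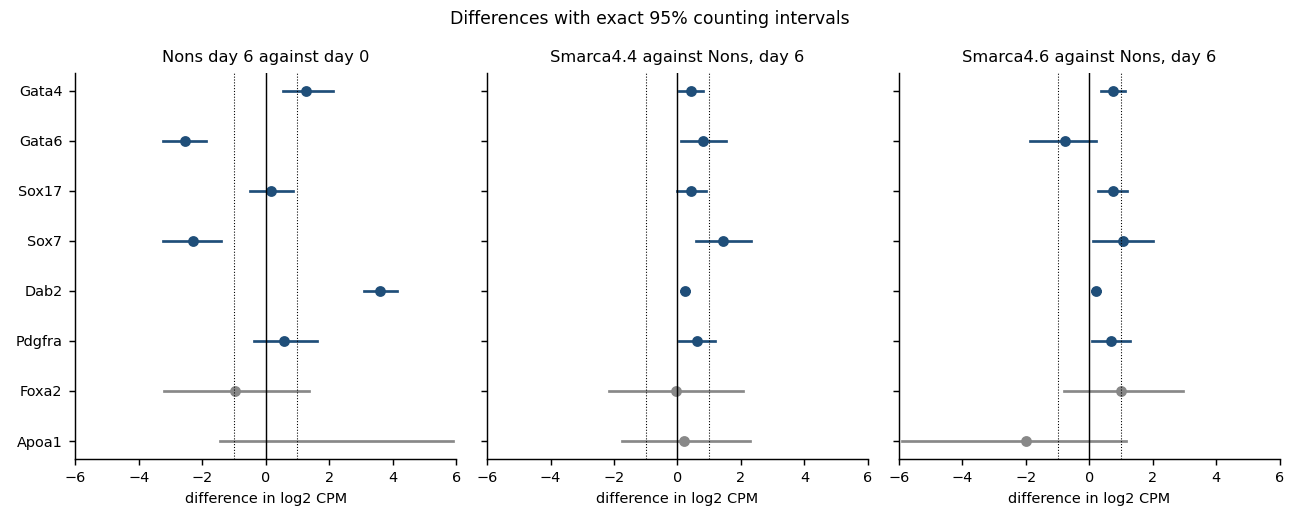
Differences in log2 CPM between pairs of libraries for 8 of the genes, with exact 95% counting intervals cut at the frame; dotted lines mark 2-fold, and Foxa2 and Apoa1, with few reads, are in grey. Apoa1 has no point against day 0, where it had 0 reads, and Afp and Ttr are left out. Gata4 and Dab2 lie above 0 and Gata6 and Sox7 below 0 in Nons against day 0.

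Counts past 2-fold were read against all genes. Genes with a mean log2 CPM of at least 0 over the 4 libraries were kept, which left 13264 genes and 4 of the 10, namely Gata4, Sox17, Dab2 and Pdgfra. Between day 0 and Nons, 2 of these 4 were at least 2-fold higher (Gata4 and Dab2) and 0 lower, against 19.6% and 12.3% of all kept genes. Against Nons, 0 of the 4 were at least 2-fold higher or lower with Smarca4.4, where 0.882% of kept genes were higher and 0.309% lower. The same held with Smarca4.6, where the shares were 1.03% and 0.799%. That filter left out Gata6 and Sox7, whose mean log2 CPM was -0.071 and -0.24.

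These calls depend in part on low levels. With 1 CPM added before the logarithm, Gata4 in Nons exceeded day 0 by 0.75, short of 2-fold. Dab2 at 3.03, Gata6 at -1.50 and Sox7 at -1.04 were past 2-fold with that addition too, in the same comparison. Sox7 exceeded Nons by 0.54 in Smarca4.4 and by 0.37 in Smarca4.6 on that scale. Without the addition, scaling alone brought Sox7 in Smarca4.6 just under 2-fold. The difference was 0.98 when centred on the median of kept autosomal genes and 0.997 with upper-quartile scaling.

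Without any filter, intervals were counted over all 10 genes and all 25965. Between day 0 and Nons the interval lay above 0 for 2 of the 10 (Gata4 and Dab2), beside 26.1% of all genes, and below 0 for 2 (Gata6 and Sox7), beside 24.5%. With Smarca4.4 it lay above 0 for 5 (Gata4, Gata6, Sox7, Dab2 and Pdgfra), beside 19.8%, and below 0 for 0, beside 13.7%. With Smarca4.6 it lay above 0 for 5 (Gata4, Sox17, Sox7, Dab2 and Pdgfra), beside 22.4%, and below 0 for 0, beside 13.8%. Such counts follow depth, since a gene with few reads has a wide interval. Genes with at most 3 reads in both libraries could not be counted but stay in the 25965, which lowers the shares. Above that floor were 17406 genes between day 0 and Nons, 17526 with Smarca4.4 and 17323 with Smarca4.6.

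A difference could be given for 8 of the 10 genes in each comparison, those with over 3 reads in either library. Of the 8, 5 were higher in Nons than at day 0, beside 53.4% of all genes with over 3 reads, and their median difference was 0.37, beside 0.092. With Smarca4.4, 7 of the 8 were above Nons, beside 56.1%, with a median of 0.42, beside 0.046. With Smarca4.6, 6 of the 8 were above Nons, beside 57.3%, with a median of 0.70, beside 0.063. Both comparisons use the same Nons library and are not independent of each other.

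**Figure D3:**
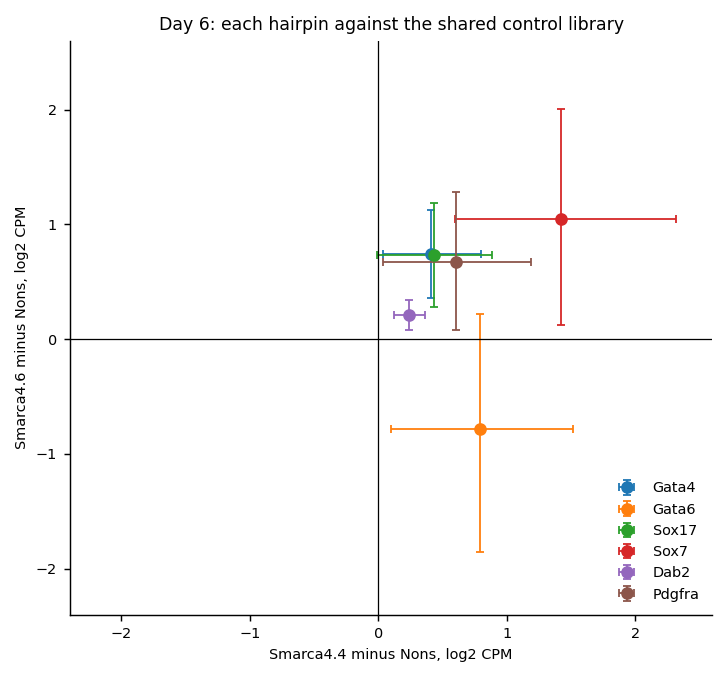
Difference in log2 CPM from Nons at day 6 for Smarca4.4 (horizontal) and Smarca4.6 (vertical) for the 6 genes with the most reads over the 4 libraries, with exact 95% counting intervals. The axes share the Nons library. Of the 6, 5 lie above 0 on both axes, and Gata6 lies at 0.79 and -0.78. Of all genes with over 3 reads in either library, 56.1% lay above Nons with Smarca4.4 and 57.3% with Smarca4.6. The share above Nons with both was not counted.

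For the members with at least 100 reads in Nons, the gene with the most similar profile over the 4 libraries was found among 13263 others by Euclidean distance of centred log2 CPM. It was Irf8 for Gata4, at a distance of 0.038, with log2 CPM of 0.10, 1.34, 1.79 and 2.10 in the same order of libraries. For Dab2 it was Cdc42ep1, at 0.069, with log2 CPM of -0.13, 3.44, 3.67 and 3.73. With 4 libraries such nearness describes these profiles only.

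A wider list of 51 other endoderm genes was measured to place the 10. Of these, 25 passed the filter on mean log2 CPM. Between day 0 and Nons, 13 of the 25 were at least 2-fold higher and 5 lower, with a median of 1.36, beside 19.6%, 12.3% and a median of 0.031 over all 13264 kept genes. Smarca4.4 had 2 of the 25 at least 2-fold higher than Nons (Lama1 and Cubn) and 1 lower (Trh), beside 0.882% and 0.309% of all kept genes. Smarca4.6 had 1 higher (Trf) and 0 lower, beside 1.03% and 0.799%. None of the 25 was past 2-fold with both hairpins, and the medians were 0.0089 and -0.14, beside 0.038 and 0.064 over all kept genes. Lama1, Trh and Trf are named for these counts, after their values were seen.

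Below that filter, as for Sox7, 3 of the 51 were past 2-fold higher with both hairpins, all on few reads in Nons. Both folds of a gene share those Nons reads. The share of all genes past 2-fold with both hairpins at any level was not counted, so whether 3 is many cannot be said. Srgn, a proteoglycan core protein made by parietal endoderm and blood cells, had 121 reads at day 0 and 8, 25 and 19 at day 6, or 3.03-fold and 2.98-fold above Nons. Cxcr4, a chemokine receptor of definitive endoderm, had 20 reads at day 0 and 12, 35 and 26 at day 6, or 2.83-fold and 2.72-fold above Nons. Ihh, a hedgehog ligand of visceral endoderm, had 3 reads at day 0 and 4, 16 and 9 at day 6, with an interval for Smarca4.6 that included 0 (-0.34 to 3.65).

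The receptors for which Dab2 is an adaptor were part of that list. Lrp2, which encodes megalin, the large endocytic receptor of visceral endoderm, had 127 reads at day 0 and 22051, 20183 and 13403 at day 6. In CPM it was 6.83 at day 0 against 482, 428 and 367 at day 6. Nons exceeded day 0 by 6.14 in log2 CPM (5.89 to 6.40), while the Smarca4 libraries lay slightly below Nons, at -0.17 (-0.20 to -0.14) and -0.39 (-0.42 to -0.36). Cubn, which encodes cubilin, a partner of megalin, had 6, 74, 187 and 98 reads. Cubn exceeded Nons by 1.29 (0.90 to 1.70) in Smarca4.4 and by 0.73 (0.28 to 1.19) in Smarca4.6. Amn, whose product anchors cubilin in the membrane, had 16, 62, 65 and 86 reads. Cubn and Amn were singled out after their values were seen.

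Basement membrane genes, which parietal endoderm expresses strongly for Reichert's membrane, were already abundant at day 0. Lama1, encoding a laminin alpha chain, had 77.9 CPM at day 0 and 8.15, 24.7 and 14.1 CPM at day 6. Like Sox7, Lama1 was lowest in Nons, with Smarca4.4 above Nons by 1.60 (1.43 to 1.77) and Smarca4.6 by 0.79 (0.60 to 0.99). Other genes of the list lay below Nons with both hairpins. Nid1, which encodes nidogen, differed from Nons by -0.34 (-0.46 to -0.23) and -0.51 (-0.64 to -0.38), and the laminin chain Lamb1 by -0.053 and -0.16. Col4a1 and Col4a2 instead lay above Nons with both hairpins. Col4a1 did so by 0.53 with Smarca4.4 and 0.26 with Smarca4.6, and Col4a2 by 0.76 and 0.29. Nid1, Lamb1, Col4a1 and Col4a2 were also singled out after their values were seen. Sparc, a matrix glycoprotein, had 139 CPM at day 0 and 358, 341 and 287 CPM at day 6. Lamc1, a laminin gamma chain, had 383 CPM at day 0 and 245, 251 and 223 CPM at day 6. Within the 14 matrix and receptor genes that passed the filter, 7 were at least 2-fold higher in Nons than at day 0 and 3 lower, beside 19.6% and 12.3% of all kept genes.

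Among the other transcription factors of endoderm, the 3 with the most CPM in Nons were Otx2, Eomes and Prdm1, each of which also acts in epiblast or primitive streak. Otx2 had 37.3 CPM at day 0 and 109, 81.2 and 85.0 CPM at day 6. Eomes had 7.63 CPM at day 0 and 33.9, 29.5 and 27.3 CPM at day 6. Prdm1 had 15.3 CPM at day 0 and 8.11, 7.72 and 5.92 CPM at day 6. Hnf4a, the defining regulator of differentiated visceral endoderm and hepatocytes, had 26 reads at day 0 and 4, 14 and 3 reads at day 6. Foxa3, named after its values were seen, had 0 reads at day 0 and 106, 60 and 120 at day 6.

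Most other visceral products were low at day 6. Of 14 such genes, 2 passed the filter (Trf and Amot) and 5 had at most 3 reads in Nons. Alb, which encodes albumin, had 0 reads in each library. Apob, the structural protein of very-low-density lipoprotein, had 3, 50, 97 and 55 reads. Rbp4, a retinol carrier, had 2, 38, 49 and 24 reads. Others, named after their values were seen, had more CPM at day 0 than at day 6. Apom had 72 reads at day 0 and 8, 4 and 4 at day 6, and Apoc2 had 35 and then 10, 6 and 1. Apoa2 had 54 reads at day 0 and 21, 9 and 9 at day 6, and Cpn1 had 57 and then 30, 20 and 17. At day 0 these 4 lay between 1.88 and 3.87 CPM, and their differences between Nons and day 0 lay between -4.47 and -2.22 in log2 CPM. Amot, an angiomotin that acts at cell junctions and is found outside the endoderm too, was the exception, with 3.49 CPM at day 0 and 53.7, 60.2 and 54.0 CPM at day 6.

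Surface genes of definitive endoderm that are general to epithelia were abundant at day 6. Cdh1, which encodes E-cadherin, had 313 CPM at day 0 and 978, 984 and 965 CPM at day 6. Epcam had 62.7 CPM at day 0 and 291, 269 and 249 CPM at day 6. Cldn6, a tight junction protein of embryonic epithelia, had 2.20 CPM at day 0 and 281, 221 and 234 CPM at day 6. Against Nons, Cdh1 differed by 0.0089 with Smarca4.4 and by -0.019 with Smarca4.6, with intervals that included 0. Epcam differed by -0.12 and -0.23 and Cldn6 by -0.34 and -0.26, with intervals below 0. Other genes of that list of 7, named after their values were seen, did not share the rise from day 0. Kit had 193 CPM at day 0 and 7.23, 6.07 and 7.37 CPM at day 6. Trh had 4.25 CPM at day 0 and 4.48, 1.12 and 3.40 CPM at day 6, and Pyy had 6, 4, 5 and 3 reads.

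**Figure D4:**
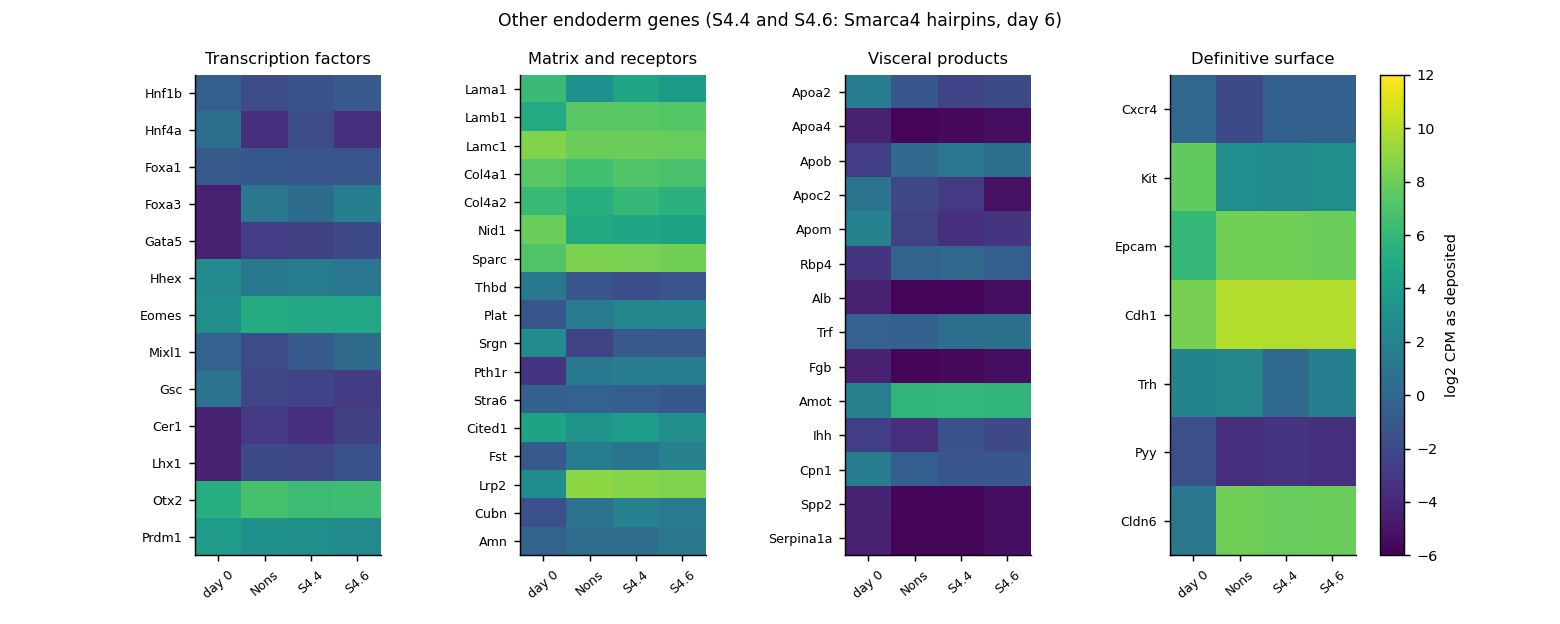
Deposited log2 CPM of 51 other endoderm genes in the day 0, Nons, Smarca4.4 (S4.4) and Smarca4.6 (S4.6) libraries, in 4 panels by role; 0 reads appear as the value the authors wrote for them, so that the darkest cells are genes without reads. The visceral product panel is dark apart from Amot and a few others, whereas Lrp2, Cldn6 and Cdh1 are bright at day 6.

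Many of the 10 genes are also expressed in other lineages, so markers of these were read in the same libraries. Of 8 endothelial genes, which bear on Sox17 and Sox7, 3 passed the filter. The summed CPM of the 8 was 240 at day 0 and 18.6, 16.2 and 13.9 at day 6. The 3 with the most CPM in Nons were Pecam1, Tek and Etv2. Pecam1, which mESCs express, had 227 CPM at day 0 and 10.7, 8.40 and 6.27 CPM at day 6. Tek, an angiopoietin receptor, had 7.63 CPM at day 0 and 5.03, 4.69 and 3.15 CPM at day 6, and Etv2, an early regulator of endothelium, had 0.484 and then 1.29, 1.36 and 2.16 CPM. Cdh5, the defining cadherin of endothelium, had 15, 23, 32 and 44 reads, and Emcn, named because it was at 0, had no read in any library. The part of endothelial cells in the Sox7 and Sox17 values was not tested.

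Mesoderm and cardiac markers bear on Gata4, Gata6 and Pdgfra. Of 14, 7 passed the filter, and the sum ran from 22.5 CPM at day 0 to 48.3, 58.1 and 46.3 CPM at day 6. The 3 with the most CPM in Nons were Col1a1, Tbx20 and Twist1, at 16.8, 14.1 and 6.71 CPM. T, which marks the primitive streak, had 109 reads at day 0 and 18, 12 and 91 reads at day 6, so Smarca4.6 stood apart from the other day 6 libraries. The cardiac gene Nkx2-5 had 5, 14, 16 and 13 reads. Past 2-fold with both hairpins were Mef2c, higher, with 0, 7, 17 and 22 reads, and the cardiac troponin gene Tnnt2, lower, with 29, 11, 2 and 3 reads. The interval included 0 for Mef2c with Smarca4.4 (-0.11 to 2.75) and for Tnnt2 with Smarca4.6 (-4.03 to 0.37). Hand1, named after its values were seen, had 0.269 CPM at day 0 and 6.42, 19.4 and 11.0 CPM at day 6, which is the order of Lama1 and Sox7 at day 6. The part of mesoderm in the values of Gata4, Gata6 and Pdgfra was not tested.

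Trophectoderm markers, which overlap with early epithelia, summed to 102 CPM at day 0 and 1622, 1783 and 1408 CPM at day 6. Krt8, Krt18 and Krt7 led them in Nons at 964, 554 and 48.6 CPM, while the defining regulator Cdx2, named after its values were seen, had 26, 10, 12 and 22 reads. Of 8 genes, 6 passed the filter, and Eomes is on this list as well as among the endoderm factors.

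Neural markers bear on Foxa2, and summed to 58.1 CPM at day 0 and 394, 367 and 395 CPM at day 6. Nes, Pax6 and Foxj1 led in Nons at 380, 7.34 and 6.67 CPM, against 43.7, 13.2 and 0.161 CPM at day 0. Nes therefore made up most of the rise in the sum, and Pax6 was lower in Nons than at day 0. Shh, the floor plate signal, named because it was at 0, had 3 reads at day 0 and 0 reads at day 6. Sox1, an early neural factor, was past 2-fold higher with both hairpins, with 15 reads at day 0 and 9, 140 and 30 at day 6. Sox1 exceeded Nons by 3.92 (2.95 to 5.08) with Smarca4.4 and by 2.06 (0.95 to 3.32) with Smarca4.6. Pax6 exceeded Nons by 0.62 (0.42 to 0.82) and 0.60 (0.39 to 0.81). Sox1 and Pax6 therefore moved with the hairpins in the same direction as Gata4, Sox7, Dab2 and Pdgfra, whereas Foxj1 and Nes did not. Foxj1 differed from Nons by -0.70 (-0.97 to -0.44) with Smarca4.4 and by -1.25 (-1.59 to -0.93) with Smarca4.6. Nes differed by -0.12 and 0.0027. The part of neural cells in the values of these endoderm genes was not tested.

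Of 8 pluripotency genes, 7 were at least 2-fold lower in Nons than at day 0 and 1, Pou5f1, was not, with 724 CPM at day 0 and 915, 701 and 982 CPM at day 6. Nanog was at 999 CPM at day 0 and 60.7, 47.2 and 46.3 CPM at day 6, and Sox2 was at 445 CPM and then 45.0, 33.3 and 34.5 CPM.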

How the data were processed

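RNA-seq of 4 libraries (1 per group) was analysed. According to the study's methods, paired-end reads were trimmed with trim_galore, aligned to mm10 with FVB/CAST variant positions masked (HISAT2 per the labels, and tophat is also named), and counted over exons in SeqMonk. The strand setting is not given in the sources used here, so a gene and an antisense partner cannot be separated. The deposited values are log2 CPM made by the authors, with both alleles combined. Back-transformed values were whole multiples (within 0.1) of 1 step per library, with 0 reads written as 0.9 of a step. In each library 99.9891% or more of the nonzero values were whole, which gave read counts and totals. Whether 1 pair gave 1 or 2 reads is not known.

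Groups follow the sample titles, since a genotype field names Smarcc for all day 6 libraries, Nons included, and a non-silencing control for day 0, which precedes transduction. Differences are between deposited log2 CPM values. Ratio intervals are exact Clopper-Pearson, and level intervals exact Poisson, both at 95%. No fold was given where both libraries had at most 3 reads. Positions are those of the deposited table in mm10. Transcript lengths and hairpin targets are from GENCODE M21 on the same assembly. Genes named were the 10, the 3 with the most CPM in Nons on each wider list, genes past 2-fold with both hairpins at any level above 3 reads, and Hnf4a, Apob, Alb, Cdh5, Pecam1, Nkx2-5 and T, and exceptions are stated. The members, lists and alternatives were chosen with earlier results of these data known. The steps were tested on simulated reads. Alternatives were other filters, scalings and a pseudocount. The tools were matplotlib 3.10.9, pandas 2.3.3, scipy 1.17.1, numpy 2.4.6 and Python 3.11.15.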

Additional observations from a re-analysis of the deposited data

Results flagged for a closer look

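In 3 of the 10 genes the Smarca4 hairpins lay on opposite sides of the shared Nons library. The share of all genes that did so was not counted, so nothing is read from that number. Whether the hairpins differ as conditions was not tested, with 1 library each. Gata6 differed from Nons by 0.79 in log2 CPM with Smarca4.4 and by -0.78 with Smarca4.6, a gap of 1.57 between them (0.67 to 2.58 by counting error). Foxa2 differed by -0.043 and 1.00, a gap of -1.05 (-3.01 to 0.75), on 5, 5 and 8 reads in Nons, Smarca4.4 and Smarca4.6. Apoa1 differed by 0.22 and -2.00, a gap of 2.22 (-0.83 to 7.74), on 5, 6 and 1 reads.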

How the results depend on the processing

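No paired analysis was possible because only 1 library of each kind, labelled replicate 3, was analysed here, and for the same reason no library could be left out. Of 60 alternative values of the counts and medians, 46 stayed near the reported count or inside a range around the median. Another 9 counts moved and 5 medians changed sign. That range ran from the median of the lower bounds to the median of the upper bounds of the counting intervals of the 10 genes. For Nons against day 0 it was -2.31 to 1.49, so a median that stayed inside says little. The median difference of the 10 genes between Nons and day 0, -0.41, includes Ttr and Afp, which have no usable difference, and was 0.37 over the 8 genes with over 3 reads in either library. It became 0.047 with a pseudocount of 1 CPM, 0.93 over genes with a mean log2 CPM of at least 0, 3.59 over the only gene with a mean of at least 3 (Dab2), and 0.37 over genes with at least 100 reads in all, so no direction is drawn from it. The settings of over 3 reads and of at least 100 reads were added after the data were seen. Sox7 reaches 100 reads only through its higher libraries (126 in all, but 96.5 with Smarca4.4 at the Nons level and 98.9 with day 0 at it), so counts under that setting bear on nothing. For Nons against day 0, the count of genes at least 2-fold higher went from 2 to 1 with the pseudocount and with the mean of at least 3. The count lower went from 0 to 4 with no filter, which includes Afp and Ttr at 3 reads or fewer, and to 2 with at least 100 reads. Against Nons, the count higher went from 0 to 2 with no filter and to 1 with at least 100 reads for Smarca4.4, and to 3 and 1 for Smarca4.6. With no filter these were Sox7 and Afp for Smarca4.4, and Sox7, Foxa2 and Afp for Smarca4.6. Afp had 3 reads or fewer and no usable difference. The count lower for Smarca4.6 went from 0 to 1 (Apoa1) with no filter. Of 96 alternative values for single genes, 0 changed sign and 5 moved beyond their counting interval, all with the pseudocount, which shrinks low levels. Scaling moved the median of all kept genes by under 0.1. Depth limits Foxa2, Afp, Ttr and Apoa1, for which differences of several fold would not be visible.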
